A study of Arabidopsis thaliana with 4 samples.

Results

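The 53 genes described here encode the machinery of DNA methylation and small RNA silencing in Arabidopsis thaliana, and for each of them the distance to the nearest Pol V chromatin immunoprecipitation (ChIP-seq) summit was measured. They were chosen by locus tag in the RefSeq TAIR10.1 annotation, all 53 were found there, and they are 53 of the 27444 protein-coding genes on the 5 nuclear chromosomes. They fall into 9 roles: Pol IV and Pol V subunits, Pol IV recruitment, siRNA production, Argonautes, Pol V co-factors and MORC ATPases, DNA methyltransferases and maintenance factors, SUVH proteins, DNA demethylases, and histone modifiers together with MOM1. NRPE1, DRD1, DMS3, RDM1 and the other core genes of RNA-directed DNA methylation (RdDM) are not among them and are given only for comparison.

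The study determined cryo-electron microscopy structures of complexes of DMS3 and RDM1, with and without a DRD1 peptide. It also asked by ChIP-seq whether DRD1, DMS3 and RDM1, the 3 proteins of the DDR complex, sit at the same genomic places as Pol V. It prepared 1 anti-FLAG ChIP-seq library each from inflorescences of untreated DRD1-FLAG, DMS3-FLAG and RDM1-FLAG plants and of untransformed Col0 plants, and the signals of these 4 libraries were not analysed here. The RDM1 transgene was a tagged genomic fragment put into rdm1-3 mutant plants. In its other experiments on these plants, the paper used wild-type Wassilewskija (WS) plants as the control. The values below come from 1 list of Pol V peak summits, made by the authors from reads of an earlier experiment that compared an antibody against Pol V with a control without antibody.

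The list holds 11478 summits, each with a peak score in whole numbers that ran from 28 to 1615 (median 169, upper quartile 352). Neither the unit nor the origin of the score is stated, so it is used only to rank summits within the list, rank 1 being the highest. There is a single peak call with no read counts, so the depth behind a summit is unknown, and no replicate error and no test between samples can be given. Differences between the machinery genes and all protein-coding genes are therefore given as counts and shares, without a test.

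RdDM in plants works through a pair of polymerases related to Pol II. Pol IV transcripts are made double-stranded, cut by a Dicer-like protein into small interfering RNAs (siRNAs) and loaded into an Argonaute, and Pol V makes scaffold transcripts at the target loci, where the Argonaute recruits a DNA methyltransferase. Other methyltransferases copy methylation after replication, and DNA glycosylases such as ROS1 remove it. The comparison asks how often, and where, Pol V was found at the genes that encode this machinery. A summit marks where ChIP-seq signal was highest and by itself says nothing about methylation or expression of the gene.

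The sequences under the 5 highest-scoring machinery gene summits that lie outside every annotated exon show what the Pol V sites look like at base level. Each is 101 bases, with the summit in the middle and 50 bases on each side, written 5′ to 3′ on the strand of the gene, from the RefSeq TAIR10.1 genome. Capitals mark CG dinucleotides, the context that MET1 maintains and VIM1 reads. The intervals are chr1:21418573-21418673 for VIM1, chr2:15314802-15314902 for ROS1, chr5:1457476-1457576 for SUVH1, chr5:17610278-17610378 for AGO10 and chr5:6869502-6869602 for DCL4. The VIM1, ROS1, SUVH1 and DCL4 genes are on the minus strand and AGO10 is on the plus strand.
VIM1: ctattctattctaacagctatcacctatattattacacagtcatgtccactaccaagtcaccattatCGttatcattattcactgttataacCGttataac
ROS1: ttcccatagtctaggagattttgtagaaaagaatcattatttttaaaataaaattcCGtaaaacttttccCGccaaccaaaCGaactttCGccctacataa
SUVH1: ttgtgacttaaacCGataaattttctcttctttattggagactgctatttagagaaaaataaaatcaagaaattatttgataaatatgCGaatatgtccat
AGO10: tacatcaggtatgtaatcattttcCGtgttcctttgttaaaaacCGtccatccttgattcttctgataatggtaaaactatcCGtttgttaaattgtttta
DCL4: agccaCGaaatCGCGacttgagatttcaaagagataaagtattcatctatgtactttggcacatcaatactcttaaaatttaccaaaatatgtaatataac

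These stretches held 2 to 4 CG dinucleotides, the most, 4, at ROS1 and 2 each at VIM1 and SUVH1, with 3 each at AGO10 and DCL4. Their GC content was 25.7% at SUVH1, 30.7% at DCL4, 31.7% at AGO10 and 32.7% at both VIM1 and ROS1. All 5 summits lay upstream of their gene.

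The share of machinery genes with a Pol V summit upstream of the gene start was above that of protein-coding genes in general. Of the 53 machinery genes, 17 (32.1%) had a summit inside the gene or within 1000 bp of it, against 27.6% of all 27444 protein-coding genes, a difference of 4.45 percentage points. Within 1000 bp upstream of the annotated start, a summit was found at 15 machinery genes (28.3%), against 14.5% of all genes, a difference of 13.8 points. A summit inside the gene was found at 3 machinery genes (5.66%), against 8.03% of all genes. With scores at or above the list's median the order turned, at 2 machinery genes (3.77%), against 3.28%. With scores at or above the upper quartile it turned back, at 0 machinery genes, against 1.53%. A downstream summit within 1000 bp was found at 3 machinery genes (5.66%), against 10.5% of all genes. The total share was thus close to the background, and the position of the summits is where the 2 sets stood furthest apart.

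**Figure D1:**
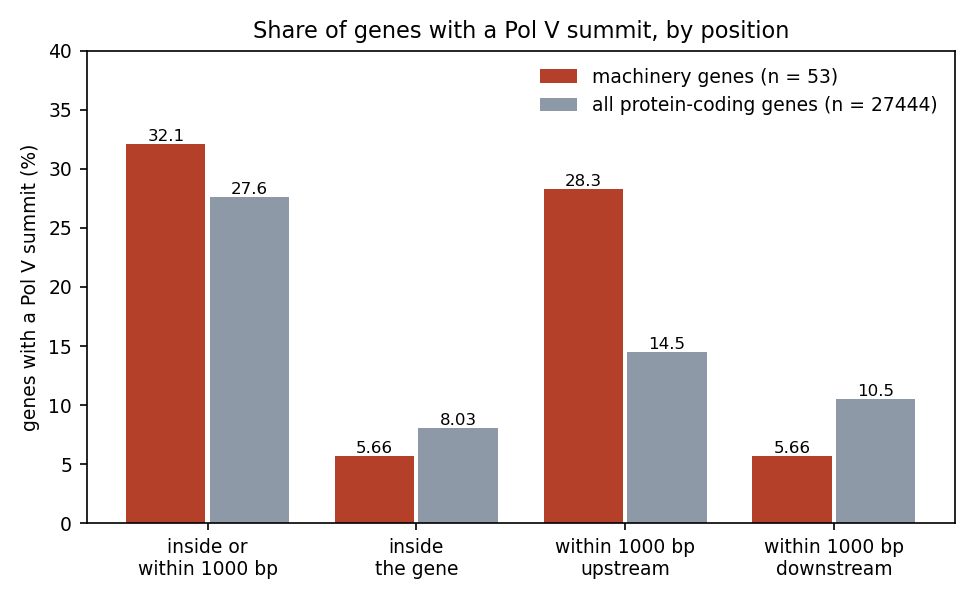
Share of genes (%) with a Pol V summit, by position relative to the gene, for the 53 machinery genes (red) and all 27444 protein-coding genes (grey). The upstream bars stand furthest apart, at 28.3% for machinery genes and 14.5% for all genes. The bars for inside and downstream rest on 3 machinery genes each. The order for inside turns with scores at or above the list's median (3.77% of machinery genes, against 3.28%). It turns back with scores at or above the upper quartile (0 machinery genes, against 1.53%).

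The higher-ranked summits were counted in the same way. With summits limited to scores at or above the upper quartile of 352, 8 machinery genes (15.1%) had one inside or within 1000 bp, against 9.46% of all genes. All 8 of these were upstream summits, so the upstream count was also 8 (15.1%), against 5.27% of all genes. The genes were VIM1, ROS1, SUVH1, AGO10, DCL4, RDR1, DCL3 and SUVH5.

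Machinery genes were long. Their median length was 4986 bp (range 1447 to 10096), against 2078 bp for all protein-coding genes, and 44 of the 53 were longer than the upper quartile of all genes. Over all protein-coding genes, the share with any summit was 29.5% in this longest group and 29.6% in the shortest one of the same size, and the share with one inside was 9.23% and 8.55%. Among genes of the longest group, 14 of the 44 machinery genes (31.8%) had an upstream summit, against 16.8% of all genes, and 3 (6.82%) had one inside, against 9.23%. Of the 9 shorter machinery genes, 1 of 7 (14.3%) between the median and the upper quartile of length had an upstream summit, against 13.6%, and 0 of 2 between the lower quartile and the median, against 13.6%. Among genes with at least 1000 bp free of other protein-coding genes upstream, 11 of 29 machinery genes (37.9%) had an upstream summit, against 22.5% of all. Among genes with less upstream room it was 4 of 24 (16.7%), against 7.02%. The upstream share of machinery genes was thus the higher one in the longest group and with either amount of upstream room, and about equal or lower in the 2 shorter groups, which hold few machinery genes.

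The median density of summits around the genes was similar, at 77.5 summits per Mb within 100 kb for machinery genes and 74.6 for all genes. The upper quartile and the mean were lower for machinery genes, at 97.5 and 81.2, against 124 and 92.2. With all genes split into 3 equal strata by this density, the upstream share was 11.1% for machinery genes (2 of 18), against 6.30% for all genes, in the lowest stratum. It was 30.4% (7 of 23), against 11.8%, in the middle one and 50% (6 of 12), against 25.4%, in the highest. The density counts the upstream summits themselves, so an increase in the share from the lowest to the highest stratum is built in and is not read as a result. Within each of the 3 strata the share was higher for machinery genes. This split was chosen after the counts were seen.

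Upstream summits of machinery genes also lay close to the gene start. There were 16 of them at 15 genes, or 30.2 per 100 machinery genes, against 15.1 per 100 of all protein-coding genes. Their distance to the start ran from 40 to 990 bp with a median of 444.5 bp, against a median of 515 bp for all genes. In steps of 200 bp, machinery genes had 5.66 summits per 100 genes at 1 to 200 bp, against 1.89 for all genes. At 201 to 400 bp they had 7.55, against 3.39, and at 401 to 600 bp they had 13.2, against 3.72. Beyond 600 bp the order turned, with 1.89 at 601 to 800 bp, against 3.23, and 1.89 at 801 to 1000 bp, against 2.83. The machinery gene counts behind these steps are small, 3, 4, 7, 1 and 1 summits.

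**Figure D2:**
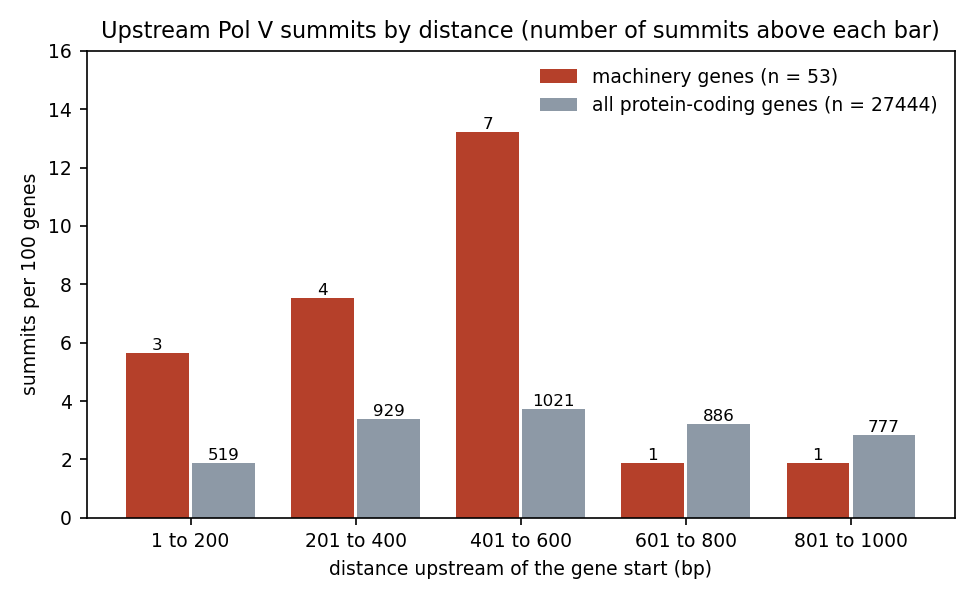
Upstream Pol V summits per 100 genes in 200 bp steps from the gene start, for the 53 machinery genes (red) and all protein-coding genes (grey), with the number of summits above each bar. Machinery genes reach 13.2 per 100 genes at 401 to 600 bp, against 3.72, and are below all genes beyond 600 bp.

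The map of summits along each gene shows where the 22 summits within 1000 bp of a machinery gene lay: 16 upstream, 3 inside and 3 downstream. Of the 3 inside, 2 were in introns and 1 in a coding exon. Of the 17 genes, 4 had more than 1 summit: CLSY1 had 3, and HEN1, AGO10 and ROS1 had 2 each. Of the 22 summits, 7 had another summit within 3000 bp. The share over the whole list was 63.4%, but only 7592 of its 11478 summits lay within 1000 bp of a protein-coding gene. The share among those was not counted, so the 2 values are not for like sets.

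**Figure D3:**
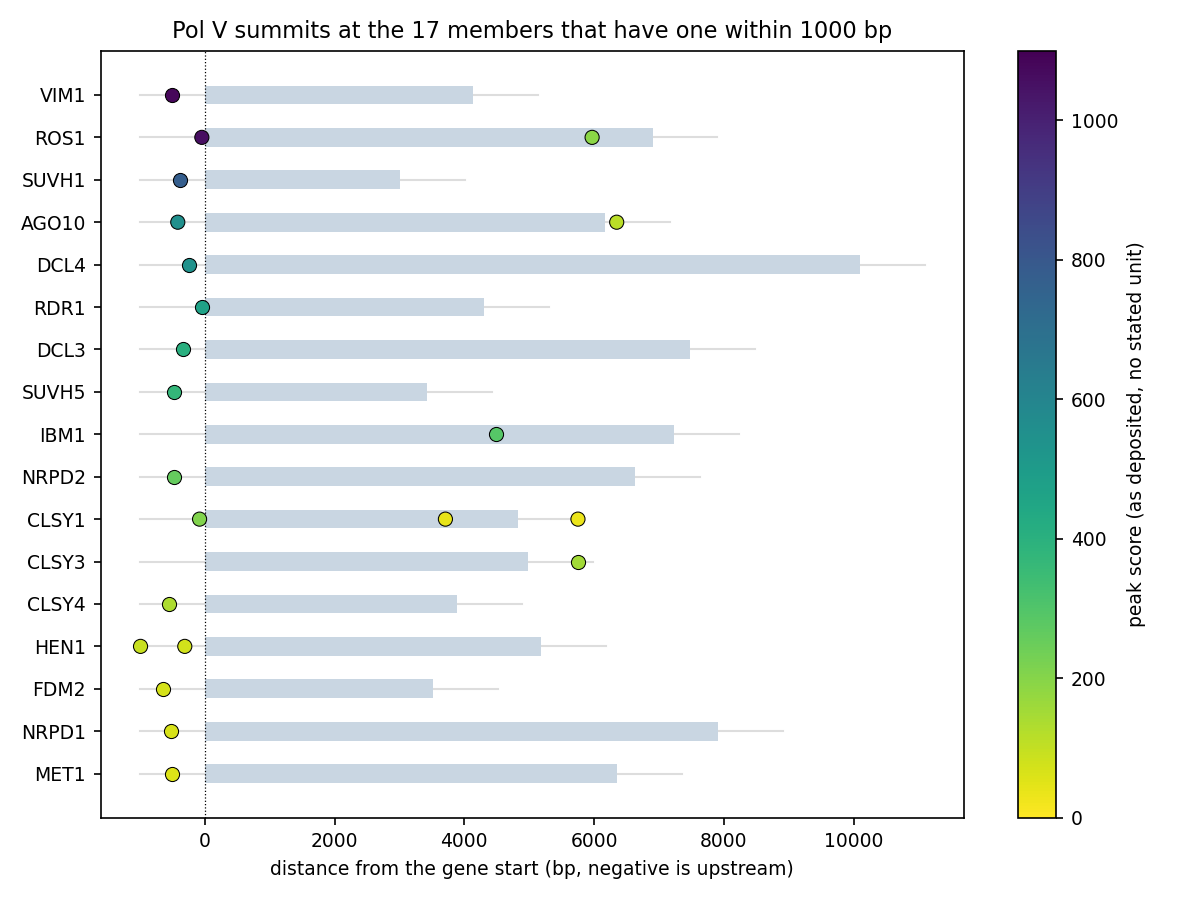
Pol V summits (circles, coloured by peak score) along the 17 machinery genes that have one within 1000 bp, in bp from the gene start, with each gene as a grey bar and 1000 bp on each side as a thin line; genes run from the highest to the lowest top score. The highest-scoring circles, at VIM1 (1080) and ROS1 (1058), sit just left of the start, and those inside or downstream of genes have scores of 292 or less.

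Among the Pol IV and Pol V subunits, 2 of 4 genes had a summit, both upstream. NRPD1 (AT1G63020), the largest subunit of Pol IV, had a summit 526 bp upstream with a score of 67 (rank 9136), in sequence with a GC content of 19.4% within 250 bp, the lowest of the 22 summits. NRPD2 (AT3G23780), the second-largest subunit, which Pol IV and Pol V share, had one 480 bp upstream with a score of 258 (rank 4065). The NRPD2 summit lay between divergent genes and was closer to the start of AAE16, at 362 bp, so it cannot be assigned to either gene. The other 2 subunit genes had no summit within 1000 bp. The 2 largest subunits of Pol II, NRPB1 and NRPB2, which were looked up for comparison, had their nearest summits at 8931 and 10168 bp.

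Of the 5 genes for Pol IV recruitment, 3 had a summit, and all 3 belong to the CLASSY family of putative chromatin remodellers that bring Pol IV to its loci. CLSY1 (AT3G42670) had the most, with a summit 80 bp upstream (score 208, rank 4846), one in a coding exon (score 39) and one 921 bp downstream, inside the neighbouring gene AT3G42660 (score 32). The upstream one was the only one of the 3 with a score above the list's median. CLSY4 (AT3G24340) had a summit 553 bp upstream with a score of 136, at a position where the annotation places a miRNA gene, AT3G04655. CLSY3 (AT1G05490) had 1 summit 774 bp downstream with a score of 153, the farthest among the nearest summits of the 17 genes. CLSY2 and SHH1, the histone reader that recruits Pol IV, had none within 1000 bp.

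Among the roles, siRNA production had the shortest median distance to a summit, 329 bp over 7 genes, against 3986 bp for all protein-coding genes. A summit within 1000 bp was found at 4 of the 7, all upstream. Of all protein-coding genes, 27.6% had any such summit and 14.5% an upstream one. This ranking rests on 7 genes and is given without a test. Their family relatives RDR3, RDR4 and RDR5 had their nearest summits at 4006, 10259 and 9893 bp. RDR1 (AT1G14790), an RNA-dependent RNA polymerase known from antiviral defence, had a summit 40 bp upstream with a score of 467 (rank 1857), the shortest upstream distance of all machinery genes. DCL4 (AT5G20320), the Dicer-like protein that makes trans-acting siRNAs, had one 245 bp upstream with a score of 545 (rank 1412). DCL3 (AT3G43920), the Dicer-like protein that makes the siRNAs of RdDM, had one 329 bp upstream with a score of 405 (rank 2329). These 3 scores were all above the upper quartile of the list. HEN1 (AT4G20910), the methyltransferase that protects small RNA ends, differed from them: its 2 upstream summits, at 308 and 990 bp and 682 bp apart, had scores of 75 and 94. DCL1, DCL2 and RDR6 had none within 1000 bp, with their nearest at 6206, 7463 and 2600 bp.

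Of the 8 Argonautes, 1 had a summit within 1000 bp. AGO10 (AT5G43810), which sequesters a microRNA family in the shoot meristem, had one 416 bp upstream with a score of 550 (rank 1393) and one 186 bp downstream with a score of 115. The nearest other protein-coding gene to the upstream summit was 8412 bp away. The other 7 Argonautes had their nearest summits at 1245 to 7861 bp. AGO2 and AGO3, which are neighbours, have the same nearest summit.

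Of the 7 Pol V co-factors and MORC ATPases, 1 had a summit within 1000 bp. FDM2 (AT4G00380), a partner of the RNA-binding protein IDN2, had a summit 640 bp upstream with a score of 69 (rank 9072), which was closer to the start of the divergent gene ANTR2, at 500 bp. The median distance over the 7 genes was 11531 bp, the longest of the 9 roles. SPT5L, whose protein binds the Argonaute and accompanies Pol V, was 13920 bp from its nearest summit.

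Of the 6 DNA methyltransferases and maintenance factors, 2 had an upstream summit, at similar distances and at opposite ends of the score range. VIM1 (AT1G57820), which binds hemimethylated CG sites and helps MET1, had a summit 508 bp upstream with a score of 1080 (rank 115), the highest of the 22. MET1 (AT5G49160), the maintenance methyltransferase for CG sites, had one 498 bp upstream with a score of 58 (rank 9717), the lowest among the upstream summits. The MET1 summit also had the lowest share of unique 50-mers, 89.4%, and 33.2% of its 20-mers within 250 bp occur again elsewhere in the genome, against 2.91% at VIM1. The chromomethylases CMT2 and CMT3, the remodeller DDM1 and DRM1 had no summit within 1000 bp.

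Of the 5 SUVH genes, 2 had an upstream summit. SUVH1 (AT5G04940), a reader of methylated DNA that promotes expression of nearby genes, had one 385 bp upstream with a score of 777 (rank 544), which also lay 115 bp downstream of the end of NAS1. SUVH5 (AT2G35160), a histone methyltransferase, had one 473 bp upstream with a score of 370 (rank 2656), 279 bp upstream of the divergent gene AT2G35155. Both summits were therefore closer to another gene than to the SUVH gene. SUVH4, SUVH6 and SUVH3 had none within 1000 bp.

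Of the 4 DNA demethylases, ROS1 had summits and the other 3 did not. ROS1 (AT2G36490), a DNA glycosylase that removes methylated cytosine, had a summit 45 bp upstream with a score of 1058 (rank 128). The start of ROS1 is known as a place where methylation state and transcription of the gene are linked. A second ROS1 summit lay in intron 17 of 20, an intron of 79 bp, with a score of 192 (rank 5209). The nearest summits of DML2, DML3 and DME were at 1074, 1507 and 4157 bp.

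Of the 7 histone modifiers and MOM1, IBM1 had the only summit, and it was inside the gene. IBM1 (AT3G07610), a histone demethylase that keeps heterochromatic marks out of genes, had it in intron 7 of 15, an intron of 895 bp, with a score of 292 (rank 3556). An intron of IBM1 is known to carry heterochromatic marks that bear on processing of its transcript. The next summit in the list was 46061 bp away. The sequence at this summit, chr3:2430322-2430422 on the plus strand, is shown apart from the rule for the 5 above, because it is the best-scoring one inside a machinery gene. It held 2 CG dinucleotides, in capitals, and 38.6% GC.
IBM1: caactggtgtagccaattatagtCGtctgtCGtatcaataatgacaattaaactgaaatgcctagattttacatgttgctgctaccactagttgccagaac

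The 36 machinery genes without a summit within 1000 bp had their nearest one at 1074 to 39559 bp, with a median of 5973 bp. The 3 nearest were DML2 (1074 bp), AGO2 (1245 bp) and DRM1 (1473 bp), and the 3 farthest were MORC1 (39559 bp), HDA6 (27636 bp) and SUVH3 (20692 bp). CLSY3, at 774 bp, was the last gene inside the limit of 1000 bp and DML2, at 1074 bp, the first outside it. Over all 53 genes the median distance was 2600 bp, against 3986 bp for all protein-coding genes. Within 2000 bp of a summit were 45.3% of the machinery genes, against 37.2% of all genes, and within 5000 bp 62.3%, against 55.2%. Some of the strongest summits near machinery genes lay just beyond the limit, and these were picked after their values were seen. SUVH4 had a summit of score 1320 (rank 27) 2171 bp downstream, MORC6 one of score 1056 (rank 130) 1507 bp upstream and AGO9 one of score 951 (rank 230) 1825 bp upstream.

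**Figure D4:**
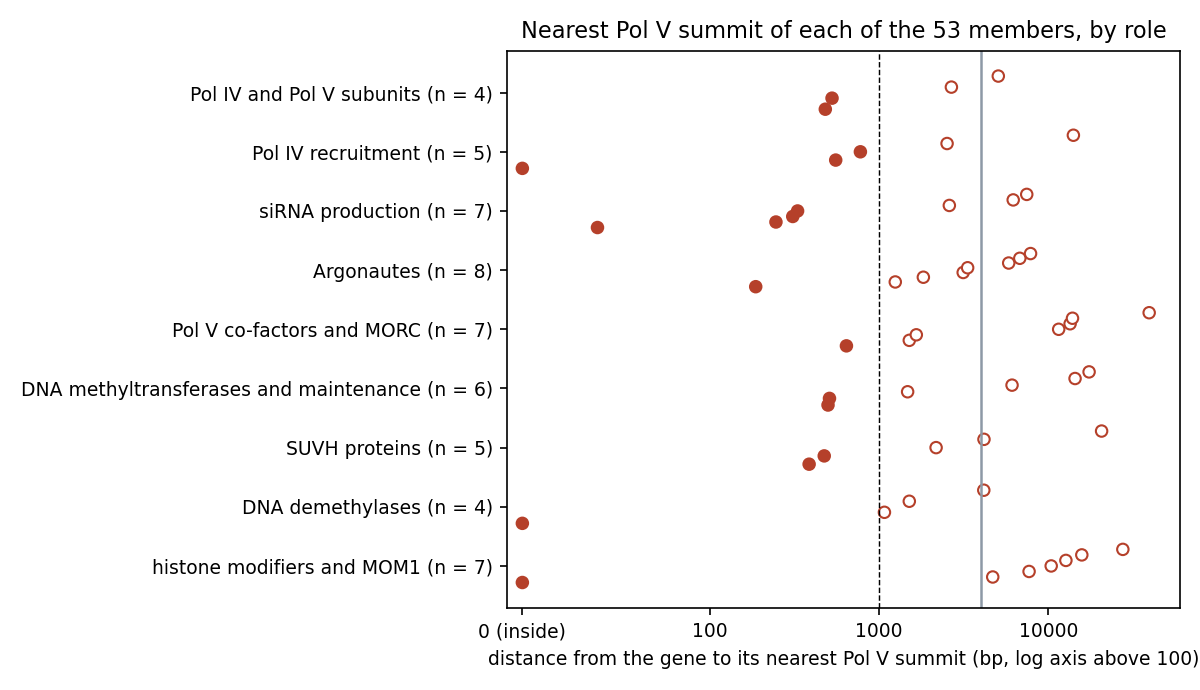
Distance (bp, log axis above 100) from each of the 53 machinery genes to its nearest Pol V summit, by role, with filled circles for the 17 genes at or under 1000 bp (dashed line) and open circles for the other 36. The solid line is the median of all protein-coding genes, 3986 bp; siRNA production genes lie mostly left of the dashed line, and 6 of the 7 histone modifiers and MOM1 lie right of the solid line.

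Scores of the 22 machinery gene summits ran from 32 to 1080 with a median of 200, against a median of 176 for the summits within 1000 bp of any protein-coding gene. Scores differed by position: the 16 upstream ones had a median of 314, against 223 for upstream summits of any gene. The 3 inside scored 39, 192 and 292, and the 3 downstream scored 32, 115 and 153. None of these 6 reached the upper quartile of the list. The upstream scores overlapped them and spread widely, from 58 at MET1 to 1080 at VIM1.

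**Figure D5:**
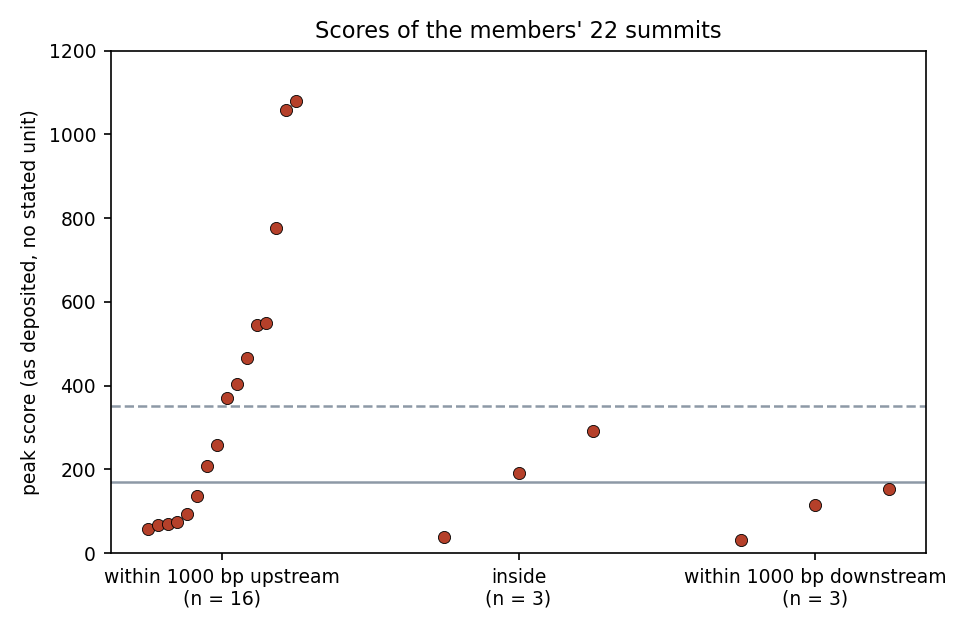
Peak scores (as deposited, no stated unit) of the 22 machinery gene summits, by position; each circle is a summit, sorted by score within its position, and the lines mark the median (169, solid) and upper quartile (352, dashed) of the whole list. The 8 circles above the dashed line are all upstream.

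The sequence around the machinery gene summits was AT-rich, a property that played no part in their choice. Within 250 bp, the 22 summits had a mean GC content of 28.7% ± 6.08 (SD, n = 22), against 33.0% ± 6.68 for the 7592 summits near any protein-coding gene. The 16 upstream ones had 26.7% ± 4.12 (SD), against 30.9% ± 5.86 for 3774 upstream summits of any gene, so both differences were smaller than the SD of the larger set. The range was 19.4% at NRPD1 to 44.5% at the coding exon of CLSY1. Cytosines that methylation can act on were fewer, with a median of 17 CG cytosines on both strands, against 22. CHG cytosines, where H is any base but G, had a median of 15, against 18, and CHH cytosines a median of 105, against 120. For upstream summits only, the medians were 16, against 20, for CG, 13, against 16, for CHG and 105, against 113, for CHH. Cytosines are part of GC content, so these counts are not independent of it.

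Machinery gene summits were about as unique in sequence as the others. Within 250 bp, a mean of 98.3% of 50-mers occurred once in the genome, against 98.0% for summits near any protein-coding gene. Repeated 20-mers made up a median of 3.11%, against 7.05%, but the values of the 22 summits ran from 0 to 41.5%, the highest at the downstream summit of CLSY3. Only reads that mapped uniquely were kept when the peaks were made, so summits in repeated sequence cannot be judged from this list.

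Related genes that are not on the list were counted in the same way. Of 22 family relatives of the machinery genes, 8 (36.4%) had a summit inside or within 1000 bp, against 27.6% of all protein-coding genes. An upstream summit was found at 6 of them (27.3%), against 14.5% of all genes and 28.3% of the machinery genes. The upstream share was thus not particular to the genes on the list. Of 9 core RdDM genes, 7 (77.8%) had a summit inside or within 1000 bp, against 27.6%. An upstream one was found at 3 of them (33.3%), against 14.5%. The core genes were set apart from the machinery genes with their summits already known.

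The VIM family, picked after its values were seen, had upstream summits at a narrow range of distances: 508 bp at VIM1, 544 bp at VIM3 and 550 bp at VIM4. Their scores differed widely, 1080, 434 and 50 in the same order of genes. VIM2 had a summit 764 bp downstream (score 337), and VIM5 had none nearer than 6340 bp. Among other relatives, MET2, a copy of MET1, had 4 summits, 2 upstream (714 and 65 bp) and 2 in coding exons, with scores of 42 to 220. MORC5 had one 766 bp upstream with a score of 825 (rank 422) and another in a coding exon with a score of 64 (rank 9394).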

How the data were processed

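The authors aligned published Pol V and control ChIP-seq reads to TAIR10 with Bowtie 1.0.0, allowing 2 mismatches and discarding reads without a unique place, removed duplicates with SAMtools 0.1.19, and used MACS2 (q-value 0.05) to call peaks, of which those over 2-fold enriched were kept. The deposited list gives each summit's position and a score in whole numbers, with no stated unit or origin. It has 6 columns and 1 blank record, which was left out; 0 columns of values per sample were unused. Whether replicates were pooled is not given in the sources used here.

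Genes and sequence came from the RefSeq TAIR10.1 annotation, which shares the nuclear coordinates of TAIR10. Coordinates are 1-based. A summit counted for a gene when inside it or within 1000 bp, upstream or downstream by strand of the outermost annotated start and end, and could count for several genes. All 53 genes were matched by locus tag, and RefSeq lists the symbol used here for 50 of them. GC content, cytosines, unique 50-mers and repeated 20-mers were taken within 250 bp of the summit.

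The members and lists were chosen with earlier results of these data known. Every member with a summit within 1000 bp is named, as are the 3 nearest and 3 farthest without one, and sequence is printed for the 5 highest-scoring summits outside annotated exons; other genes are named as chosen after their values were seen. The counting was checked on made-up positions with known answers. The FLAG libraries were not used. Python 3.11.15, NumPy 2.4.6, pandas 2.3.3 and matplotlib 3.10.9 were used. Alternatives were distances of 500 and 2000 bp, score limits, merged summits, the nearest gene only, unique sequence, longer genes as background and a 100 bp window; those for the upstream difference and the 3 strata of summit density were added after the data were seen.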

Additional observations from a re-analysis of the deposited data

How the results depend on the processing

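No paired analysis was possible because the values come from 1 list without replicates. Of 43 values under 13 alternative settings, 39 stayed within the limits set for them (within 1.5 times for a count) and 4 did not. Some of the 39 could not move: a summit inside a gene stays so at any distance and with the nearest gene only. The difference in the share with any summit counted as within its limits from 2.04 to 8.07 points. The number 39 is therefore no measure of how stable the results are. The inside share of machinery genes, below that of all genes otherwise (5.66%, against 8.03%), was above it with scores at or above the list's median (3.77%, against 3.28%). With scores at or above the list's median, 11 machinery genes had a summit inside or within 1000 bp, in place of 17 (20.8%, against 16.9% of all genes). With scores at or above the upper quartile, 8 had one (15.1%, against 9.46%) and 8 had one upstream in place of 15 (15.1%, against 5.27%). At that limit 0 had one inside in place of 3, against 1.53% of all genes. Each such limit removes summits from the count by construction. The difference from all protein-coding genes in the share with any summit ran from 2.04 to 8.07 points, the latter at 2000 bp. The 2.04 points set machinery genes of any length against a background of genes at least as long as the machinery genes' lower quartile. These are not like sets. With that length limit on both sides, 14 of 40 machinery genes (35.0%) had a summit, against 30.04%, a difference of 4.96 points. The upstream difference ran from 9.74 to 15.6 points, with alternatives chosen after the data were seen. Counting a summit only for its nearest protein-coding gene left 13 machinery genes with any summit (24.5%, against 22.3% of all genes). It left 11 with an upstream one (20.8%, against 10.6%). The median score was 192 to 292 under its alternatives, and mean GC content was 29.4% within 100 bp. The small number of genes per role, 4 to 8, limits what the counts by role can show.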
